A study of Homo sapiens with 12 samples.

Results

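Clustered histone genes were examined in 4 lines of HCT116, a human colorectal cancer cell line, by RNA-seq with 3 libraries per line. They were taken as every gene of the count table whose symbol is a numbered name of a linker histone (H1-), of a core histone gene of the replication-dependent families (H2AC, H2BC, H3C or H4C) or an older HIST name. The rule found 74 symbols among 28395 genes, and 32 of them passed the filter of 0.5 CPM (counts scaled to a common library total) in at least 3 libraries, among 15853 genes that did. Of these 32, 29 lie in the histone clusters, 21 of them on chromosome 6 and 8 on chromosome 1, and 3 lie outside them. The latter, which the rule takes in by name, include the linker histone gene H1-10 and the antisense RNA gene H1-10-AS1. H2BC20P, counted among the 29, is a transcribed pseudogene.

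HCT116 EV cells carry an empty pcDNA vector and are the control. HCT116 EHF cells carry pcDNA3.1-EHF, which encodes EHF, a transcription factor of the ETS family, and both of these lines were grown from geneticin-resistant clones. HCT116 CDX1 cells were transduced with the retrovirus MSCV-IRES-GFP-CDX1, which encodes the intestinal homeobox factor CDX1, and the GFP-positive cells were sorted and expanded. HCT116 EHF+CDX1 cells are HCT116 CDX1 cells that were then transfected with the EHF plasmid and selected with geneticin as clones. The study compared these lines to find the genes that change when EHF, CDX1 or both are put back. The study speaks of biological replicates of its RNA-seq, but the number it gives is not that of the libraries used here. No source ties each of the 3 libraries of a line to its own culture, so the p-values measure only the spread between these libraries, which may be technical. The lines are called EV, EHF, CDX1 and EHF+CDX1 cells from here on.

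Histones are the proteins around which DNA is wound. A nucleosome holds the core histones H2A, H2B, H3 and H4, and a linker histone of the H1 family binds where the DNA enters and leaves it. Most of these genes sit in clusters, are transcribed mainly in S phase, when new DNA has to be packaged, and give mRNAs that end in a conserved stem-loop in place of a poly(A) tail. The stem-loop is bound by SLBP, the U7 snRNP guides the cut behind it, and NPAT drives transcription of the clusters. Some clustered genes also give polyadenylated mRNA when a cell leaves the cycle or differentiates. H1-10 is of another kind, with polyadenylated mRNA throughout the cycle. The libraries were made from polyA RNA, so these data show mainly polyadenylated histone transcripts, and a histone mRNA without a tail is poorly sampled.

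EHF measured 299 ± 54.4 CPM (SD, n = 3) in EV cells, 19312 ± 305 in EHF cells, 12.3 ± 0.603 in CDX1 cells and 18708 ± 1433 in EHF+CDX1 cells. CDX1 was at or below 0.050 CPM in each library of EV cells and EHF cells and measured 525 ± 35.8 CPM in CDX1 cells and 5419 ± 277 in EHF+CDX1 cells. The factor each line is named for was thus high in that line, and CDX1 was higher in the line with both factors than in the line with CDX1 alone. EHF was lower in CDX1 cells than in EV cells (log2 fold change -4.60, edgeR adjusted p = 2.5e-09 against 1.5-fold). CPM are given after scaling by edgeR's trimmed mean of M-values (TMM). Total counts ran from 13523007 to 74186741 per library, and TMM factors were 0.799 to 0.845 in CDX1 cells against 0.973 to 1.09 in the others. EV replicate 3 differed from its 2 fellow libraries more than any other replicates did (chi-square per degree of freedom 294 to 323 across genes), and calls that turn on it are given with and without it. Epithelial markers were present, with KRT8 at 1012 to 2181 CPM as line means. Of the 5 epithelial markers, 1 was called higher and 3 lower in CDX1 cells than in EV cells, by the test described below. Their median log2 fold change was -0.86, and 21.3% of all genes were called higher and 23.3% lower. PTPRC and CD3E, which define leukocytes, had at most 6 and 3 reads in any library. CD14 and CSF1R, the leukocyte markers that passed the filter, were called higher in both CDX1 cells and EHF cells than in EV cells. CSF1R had up to 122 reads. COL1A1, a fibroblast collagen, measured 219, 167 and 170.2 CPM in CDX1 cells and 46.9 as the mean in EV cells although COL1A2 had at most 7 reads, and CD14 measured up to 3.81 CPM in CDX1 cells. Summed over the fibroblast markers the level was 168 to 220 CPM in CDX1 cells and 34.5 to 76.6 in the other lines, and over the leukocyte markers 3.6 to 4.84 against 0.142 to 2.66. The part of these markers in the results was not tested.

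In CDX1 cells most of the clustered histone genes that passed the filter were higher than in EV cells. Of the 32 genes tested, 19 were called higher and 1 lower (edgeR quasi-likelihood fit, change tested against 1.5-fold, Benjamini-Hochberg adjusted p of 0.05 over all genes), where 21.3% of all genes were called higher and 23.3% lower. The 19 are all in the clusters. H4C3, H4C11, H4C12 and H2BC17, which are 4 of them and were named after their values were seen, reached 0.5 CPM in fewer than 3 of the 9 libraries outside CDX1 cells. They thus passed the filter through the line in which they were high, and their calls lend no support to the count. Of the other 28 genes, 15 were called higher. The median log2 fold change was 1.72 over the 32 genes and 2.05 over the 29 in the clusters, against -0.03 over all genes. Summed over the 29, the level was 337, 373 and 284 CPM in the CDX1 libraries against 52.6, 48.2 and 101.5 CPM in EV cells. EHF cells had 65.0, 62.5 and 65.6 CPM, and EHF+CDX1 cells had 69.5, 73.3 and 71.4 CPM. In such bulk samples, more cells with a transcript and more RNA per cell cannot be told apart. The 3 CDX1 libraries were thus above the 9 others, which lay within a narrow range apart from EV replicate 3. For 17 of the 32 genes, each CDX1 library was above each of the 9 others, as it was for 27.6% of all genes. H4C12 and H2BC17, which passed the filter through CDX1 cells, are among the 17 and lend it no support. Without EV replicate 3, 21 genes were higher and 1 was lower, with a median of 2.06, where 26.2% of all genes were higher and 24.9% lower. H2AC6, H3C6 and H4C15 were then called higher, and H4C5 was no longer called (edgeR adjusted p = 0.19). H4C5 and H4C15 were named after their values were seen.

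**Figure D1:**
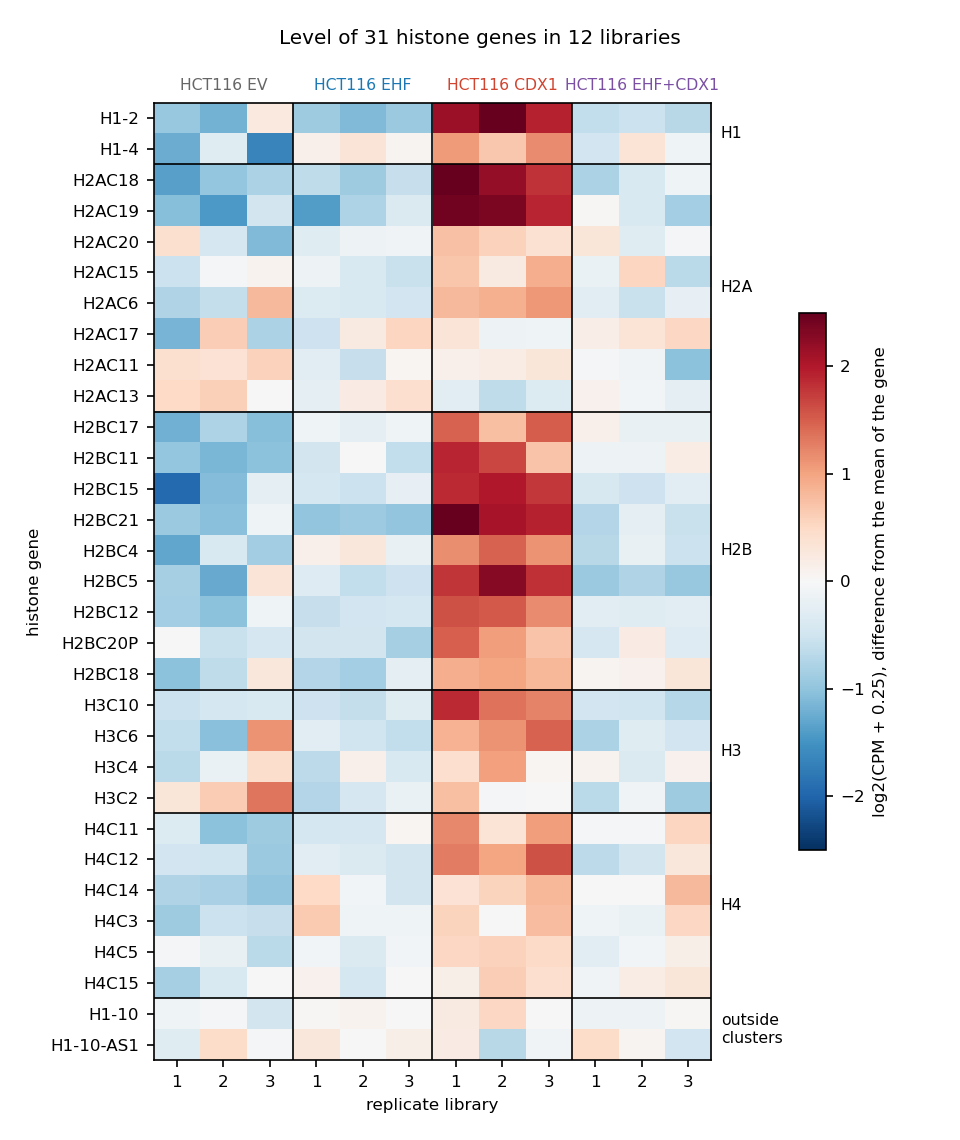
Level of 31 of the 32 histone genes (rows, by histone class) in the 12 libraries (columns, by line), as log2 CPM (a small constant added) less the mean of the gene over the 12 libraries; red is above and blue below that mean. The H2B rows are red in the 3 CDX1 columns, while H1-10 and H1-10-AS1 show no such block.

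All 9 H2B genes tested were higher in CDX1 cells than in EV cells, with log2 fold changes from 1.37 to 4.04. Of 6 H4 genes, 5 were higher, and both clustered H1 genes, H1-2 and H1-4, were higher. Of these, the H4 genes H4C3, H4C11 and H4C12 and the H2B gene H2BC17 passed the filter through CDX1 cells and lend no support. Over all genes, 21.3% were called higher and 23.3% lower. Of 8 H2A genes, 2 were higher and 1 was lower, and of 4 H3 genes, 1 was higher. Without EV replicate 3, H2AC6, H3C6 and H4C15 joined the higher genes of their classes, and H4C5 was no longer called. No test of the difference between classes was made. The genes on chromosome 6 and on chromosome 1 gave like counts, 13 of 21 and 6 of 8 higher, with medians of 2.05 and 1.91. The 13 include H4C3, H4C11, H4C12 and H2BC17. The 1 gene called lower was H2AC13, named after its values were seen, at 0.460 ± 0.146 CPM in EV cells and 0.159 ± 0.051 in CDX1 cells (log2 fold change -1.43 ± 0.44 SE, edgeR adjusted p = 0.040). It rested on 4 to 16 reads per library in these lines, and the call was lost in 7 of the 12 fits that each left out 1 library. By total count H2AC13 reached 0.5 CPM in 3 libraries, EV replicates 1 and 2 and EHF replicate 3. It thus passed the filter mainly through EV cells, where it was high, and its call lends no support.

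Ordered by level per length, as CPM per kilobase of exon (RPKM) averaged over the 12 libraries, H1-10 was at 99.2, above each clustered gene. The clustered genes were led by H1-2 at 44.3, H2BC12 at 43.1, H2BC5 at 17.7, H2AC6 at 9.90, H2AC19 at 6.77, H2AC18 at 5.46, H2BC15 at 4.66 and H3C6 at 4.37 RPKM. Most other clustered genes were faint, with a median of 2.29 RPKM over the 29. In CDX1 cells the mean was 128 RPKM for H1-2 and 95.7 for H2BC12, against 118 for H1-10. In EV cells it was 18.9 for H1-2 and 23.0 for H2BC12, against 85.7 for H1-10. H1-2 thus led the clustered genes through CDX1 cells, and H2BC12 was above it in the other lines, at 24.7 against 13.5 RPKM in EHF cells and 28.8 against 17.3 in EHF+CDX1 cells.

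The genes known to give polyadenylated mRNA besides the stem-loop form carried most of the signal. The list held H1-2, H2AC6, H2BC4, H2BC5, H2BC12 and H2BC21. In CDX1 cells 5 of the 6 were called higher than in EV cells, where 21.3% of all genes were. Their median log2 fold change was 2.49, against -0.03 over all genes. The exception, H2AC6, was also called higher without EV replicate 3. H1-2, H2BC5, H2BC12 and H2BC21 together made up 76.9 to 81.3% of the summed cluster level in CDX1 cells and 65.5 to 73.6% in EV cells. The list was drawn up with earlier results of these data known, and its count is a description. The 23 other clustered genes also summed higher, at 65.2, 57.4 and 52.5 CPM in CDX1 cells against 11.9, 12.8 and 17.7 in EV cells.

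Since the 3′ end decides whether such an mRNA is caught with polyA RNA, the stem-loop sites of these 6 genes and of H2AC18 are shown, with the 16 bases of the stem-loop in capitals and 5 bases on each side, written 5′ to 3′ on the gene's strand (GRCh38).
H1-2 (chr6:26055739-26055764, minus strand): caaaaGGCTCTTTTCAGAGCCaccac
H2AC6 (chr6:26124664-26124689, plus strand): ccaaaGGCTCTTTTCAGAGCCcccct
H2BC4 (chr6:26123467-26123492, minus strand): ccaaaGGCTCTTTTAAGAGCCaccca
H2BC5 (chr6:26158582-26158607, plus strand): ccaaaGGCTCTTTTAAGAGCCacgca
H2BC12 (chr6:27146361-27146386, minus strand): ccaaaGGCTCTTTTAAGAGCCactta
H2BC21 (chr1:149886183-149886208, minus strand): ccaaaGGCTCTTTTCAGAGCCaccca
H2AC18 (chr1:149842218-149842243, minus strand): caaaaGGCTCTTTTCAGAGCCaccca
A stem-loop of the form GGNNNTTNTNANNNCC was found within 150 bases after the stop codon in 28 of the 29 clustered genes, on the sense strand, and not in H1-10. The exception was the pseudogene H2BC20P, for which no coding region is annotated. The core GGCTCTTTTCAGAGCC stood in 14 of the 28. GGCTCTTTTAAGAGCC was the core of 4 of the 28, all of class H2B. Below the filter it also stood in genes of other classes, among them H2AC21, H1-1 and H3C8.

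The clustered genes that were highest in these polyA libraries thus hold a stem-loop too, unlike H1-10. As a mean over the libraries H1-10 was above each of them, but in CDX1 cells H1-2 was above H1-10. The polyadenylation signal AATAAA starts within 20 bases after the stem-loop in 4 of the 28 genes, H1-2, H2BC5, H2AC18 and H2AC19. All 4 were called higher in CDX1 cells than in EV cells, with a median log2 fold change of 3.06. Of all 28, 18 were called higher, as were 21.3% of all genes tested. H2AC18 and H2AC19 are nearly identical copies with an uncertain split of reads, so their calls are not separate. In H2BC21 the annotated transcript (GENCODE release 44) runs 1729 bases past the stem-loop, and its first AATAAA starts 1706 bases after it. A GENCODE transcript that ends more than 100 bases past the stem-loop was present for 11 genes, of which 8 were called higher, with a median of 2.26. For H2BC4, H2BC5, H2BC11, H2BC15 and H2BC18, which are among the 11, no exon of these longer transcripts includes the stem-loop. Among the 17 without a GENCODE transcript that ends so far past the stem-loop, 10 were called higher, with a median of 1.86. The 10 include H4C3, H4C11, H4C12 and H2BC17, whose calls lend no support. The 17 include H2BC12, whose RefSeq span does run far past its stem-loop, so the split depends on the annotation used. These are descriptions of the annotation. Which 3′ ends were present in the libraries cannot be read from counts per gene.

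H1-2 (chr6:26055740-26056470) encodes a linker histone. It measured 10.0, 8.43 and 23.1 CPM in EV cells, 10.4, 8.97 and 10.2 in EHF cells, 87.1, 118 and 75.1 in CDX1 cells and 12.6, 13.4 and 12.02 in EHF+CDX1 cells. The lowest CDX1 library was above the highest of all others, EV replicate 3. The log2 fold change of CDX1 cells over EV cells was 2.73 ± 0.32 (SE, edgeR adjusted p = 3.3e-05), and 3.34 without that replicate.

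H2BC12 (chr6:27138293-27146858) encodes a common form of H2B. Its levels were 16.3, 14.4 and 27.1 CPM in EV cells, 19.7, 21.01 and 21.6 in EHF cells, 88.8, 85.3 and 66.7 in CDX1 cells and 24.6, 23.7 and 24.3 in EHF+CDX1 cells. The change of CDX1 cells over EV cells was 2.05 ± 0.20 on the log2 scale (edgeR adjusted p = 1.6e-05). Its RefSeq span overlaps H4C9, which was below the filter.

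H2BC5 (chr6:26158121-26171349), an H2B gene, has an annotated transcript that ends 12747 bases past its stem-loop. The exons of that transcript do not include the stem-loop, which is spliced out. The levels that follow are those of H2BC5 as a gene. It measured 8.87, 6.53 and 20.01 CPM in EV cells, 12.8, 10.5 and 11.1 in EHF cells, 55.9, 78.7 and 57.3 in CDX1 cells and 8.28, 9.47 and 8.22 in EHF+CDX1 cells. The groups of CDX1 cells and of the others did not overlap. The log2 fold change over EV cells was 2.41 ± 0.32 (edgeR adjusted p = 1.3e-04), and 3.05 without EV replicate 3.

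H2BC21 (chr1:149884459-149886682), an H2B gene of the cluster on chromosome 1, is known for its long polyadenylated mRNA. Its levels were 2.45, 2.22 and 4.50 CPM in EV cells, 2.34, 2.46 and 2.32 in EHF cells, 28.6, 21.1 and 19.2 in CDX1 cells and 2.85, 4.06 and 3.25 in EHF+CDX1 cells. Only the CDX1 libraries exceeded 5 CPM, and the log2 fold change over EV cells was 2.86 ± 0.26 (edgeR adjusted p = 4.6e-06).

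The H2A and H2B genes H2AC6 and H2BC4, which start head to head, gave different calls with all libraries. H2BC4 (chr6:26113170-26123926) measured 0.258, 0.710 and 0.441 CPM in EV cells and 2.56, 3.26 and 2.47 in CDX1 cells, a log2 fold change of 2.57 ± 0.34 (edgeR adjusted p = 1.1e-04). H2AC6 (chr6:26124172-26124690) measured 2.76, 3.12 and 8.60 CPM in EV cells and 8.61, 9.09 and 10.5 in CDX1 cells. Its CDX1 libraries were above the others, of which EV replicate 3 came closest, and the change of 0.92 ± 0.34 did not pass (edgeR adjusted p = 0.14). This turned on EV replicate 3, without which the change was 1.68 ± 0.17 and passed (edgeR adjusted p = 1.7e-06).

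**Figure D2:**
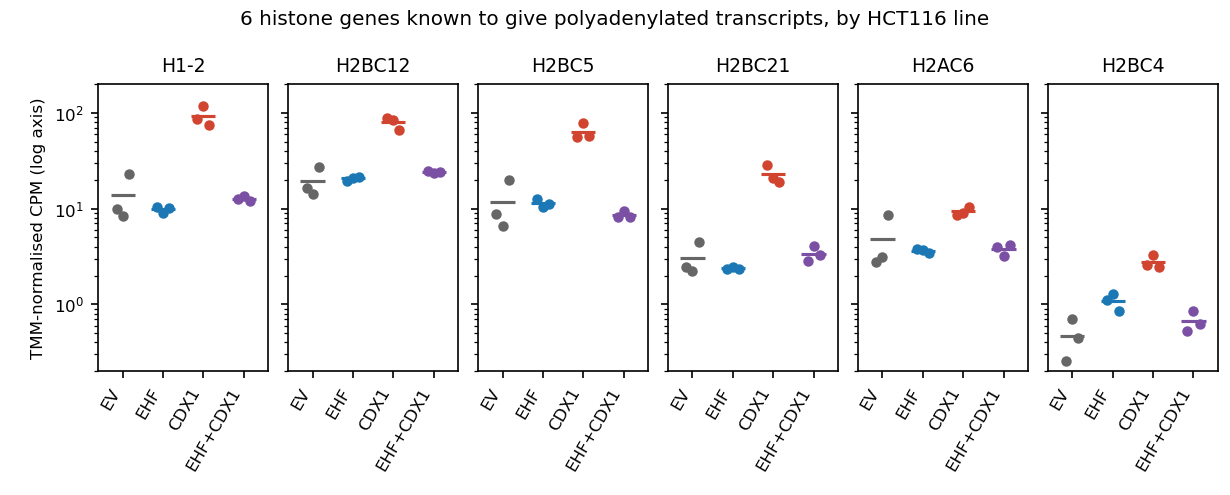
TMM-normalised CPM (log axis) of the 6 histone genes known to give polyadenylated transcripts, in the 3 libraries of each HCT116 line (points) with the line mean (bar). The CDX1 points lie above those of the other lines in each panel, and for H2AC6 the margin over EV replicate 3 is smallest, 8.61 against 8.60 CPM.

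H2AC18 (chr1:149842218-149842750) and H2AC19 (chr1:149851061-149851594) are copies of an H2A gene in the cluster on chromosome 1. They had the largest changes among clustered genes with a mean of at least 1 CPM, 3.56 ± 0.29 and 3.38 ± 0.37 on the log2 scale in CDX1 cells over EV cells (edgeR adjusted p = 1.3e-06 and 1.5e-05). Because their sequences are nearly identical and uniquely mapped reads were counted, the split of reads between the copies is uncertain. Summed, they measured 1.38, 1.37 and 2.33 CPM in EV cells, 1.65, 1.93 and 2.65 in EHF cells, 23.0, 20.5 and 15.1 in CDX1 cells and 3.003, 2.79 and 2.62 in EHF+CDX1 cells. The sum was thus far higher in CDX1 cells, whichever copy the reads came from. H4C14 and H4C15 are likewise copies, and their sum was 0.614 ± 0.140 CPM in EV cells, 1.16 ± 0.380 in EHF cells, 1.88 ± 0.323 in CDX1 cells and 1.47 ± 0.470 in EHF+CDX1 cells, with overlap between the lines other than EV cells.

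H2BC11 and H2BC15, core histone genes of the chromosome 6 cluster, rose from under 1.2 CPM. H2BC11 (chr6:27132316-27132795) measured 0.301, 0.237 and 0.276 CPM in EV cells and 3.77, 3.16 and 1.52 in CDX1 cells (log2 fold change 3.36 ± 0.41, edgeR adjusted p = 4.0e-05). H2BC15 (chr6:27838569-27839110) measured 0.172, 0.521 and 1.12 CPM in EV cells and 5.67, 6.27 and 5.35 in CDX1 cells (3.10 ± 0.40, edgeR adjusted p = 7.4e-05), and its change was 4.07 without EV replicate 3. H3C6 (chr6:26224178-26227473), an H3 gene with an annotated transcript that ends 1862 bases past its stem-loop, did not pass. Its libraries had 0.991, 0.663 and 3.88 CPM in EV cells and 3.20, 3.87 and 4.99 in CDX1 cells, and EV replicate 3 lay within the CDX1 range (1.03 ± 0.48, edgeR adjusted p = 0.19). Without that replicate the change of H3C6 was 2.26 ± 0.31 and passed (edgeR adjusted p = 2.6e-05).

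H1-10 and H1-10-AS1, outside the clusters, were not called. H1-10 (chr3:129314771-129316286), a linker histone variant expressed in most tissues, measured 136, 144 and 107 CPM in EV cells and 172, 211 and 148.99 in CDX1 cells, and its change of 0.46 ± 0.14 did not pass the 1.5-fold test (edgeR adjusted p = 0.78). The antisense gene H1-10-AS1 (chr3:129316271-129324569), which overlaps the start of H1-10, lay between 0.202 and 0.757 CPM in all 12 libraries. The strand setting of the counting is not given in the sources used here, so reads of these overlapping genes may not be told apart. The same holds for H2BC18, whose span overlaps FCGR1A, and for H4C15, whose span overlaps H2AC19, H2BC20P and H3C15.

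**Figure D3:**
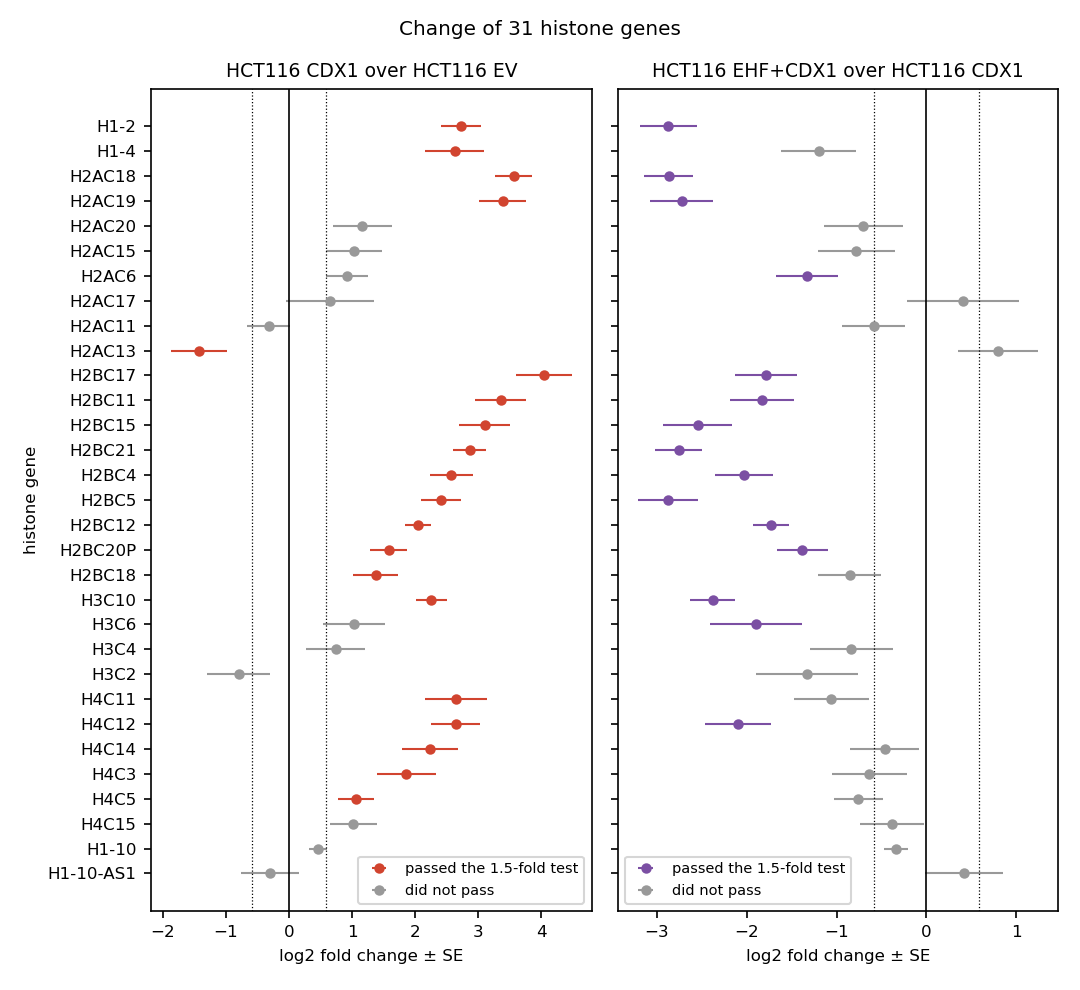
log2 fold change ± SE of each of 31 of the 32 histone genes, by class, for CDX1 cells over EV cells (left) and EHF+CDX1 cells over CDX1 cells (right); coloured points passed the 1.5-fold test (dotted lines mark 1.5-fold). The H2B genes form a block of increases on the left, from 1.37 to 4.04, and of decreases on the right, and H1-10 stays at 0.46 and -0.34.

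Position within the clusters set the H2A and H2B genes side by side. In 5 places an H2A and an H2B gene that both passed the filter start head to head, 194 to 248 bases apart, and are transcribed away from each other. In each of the 5, the H2B gene was called higher in CDX1 cells than in EV cells and the H2A gene was not, where 21.3% of all genes were called higher. Without EV replicate 3 the same held for 4 of the 5, since H2AC6 was then called higher as well. H2BC21 rose by 2.86 and H2AC20 measured 1.16 ± 0.47 on the log2 scale. H2BC11 rose by 3.36 and H2AC11 measured -0.33 ± 0.34. H2BC15 rose by 3.10 and H2AC15 measured 1.03 ± 0.45. For H2BC17 the change was 4.04 and for H2AC17 0.65 ± 0.70, on 1 to 4 reads of H2BC17 per library in EV cells. H2BC17 passed the filter through CDX1 cells, so its call lends no support to the count of pairs. All 9 H2B genes tested and 2 of 8 H2A genes were called higher, so the pairs in part restate the counts by class. These pairs were looked at after the values of their genes had been seen.

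A ratio of reads within a library does not depend on the scaling. Summed over the 5 pairs, the log2 ratio of H2B to H2A reads was -0.65, -0.59 and -0.72 in EV cells, -0.04, 0.06 and -0.15 in EHF cells, 1.79, 1.52 and 1.12 in CDX1 cells and -0.21, 0.25 and 0.08 in EHF+CDX1 cells (0.5 reads added to each count). The CDX1 libraries had the highest ratios, and the difference from EV cells was 2.13 (exact permutation test, two-sided p = 0.10, the smallest that 3 against 3 can give). The sum mostly sets H2BC21 against H2AC6, which are not partners. In CDX1 cells H2BC21 gave 2887 of the 4474 H2B reads, and H2AC6 gave 1160 of the 1575 H2A reads. The ratio differed from EV cells without overlap in 4 of the 5 pairs, each with an exact permutation p of 0.10 and 0.125 when adjusted over the 5. Ratios of other gene pairs were not taken, so no share over all genes stands beside this count. In the pair H2BC21 and H2AC20 the ratio overlapped, since EV replicate 3 had a log2 ratio of 4.42 against 4.13 to 4.39 in CDX1 cells (exact permutation p = 0.40, adjusted over the 5 pairs 0.40). The other EV libraries of this pair had 1.23 and 2.18. Against EHF+CDX1 cells the ratio of CDX1 cells overlapped in 3 of the 5 pairs, H2BC4 and H2AC6, H2BC11 and H2AC11, and H2BC15 and H2AC15, and the adjusted exact permutation p was 0.25 to 0.30 over the 5 pairs. In the pair H2BC4 and H2AC6 the ratio was higher in CDX1 cells than in EV cells by 1.46 but overlapped that of EHF cells, with means of -1.77 and -1.75. The pairs without overlap between CDX1 cells and EV cells include that of H2BC17, which passed the filter through CDX1 cells.

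**Figure D4:**
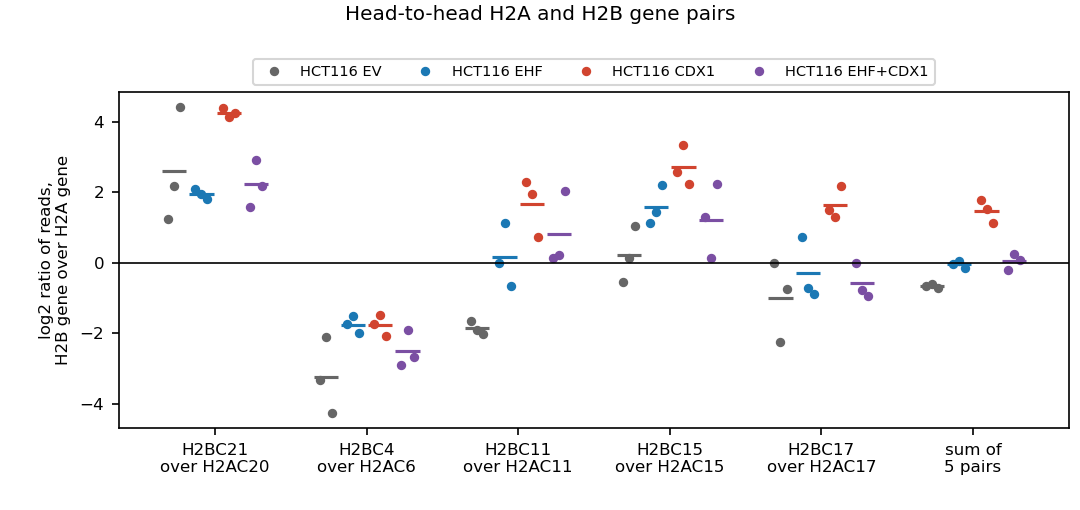
log2 ratio of H2B to H2A reads in 5 head-to-head gene pairs and in their sum, for each library (points) and line mean (bars), with a line at equal reads. In the sum the CDX1 libraries sit between 1.12 and 1.79, above the other lines, while the ratio of H2BC4 to H2AC6 overlaps between EHF cells and CDX1 cells.

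Promoter windows of 300 bases, from 250 before to 50 after the start in RefSeq (GRCh38.p14), were at hand for 27 of the 29 clustered genes, in 31 windows. Windows are shown for H1-2 and H2BC12, the most abundant clustered genes per length as means over the 12 libraries, and for H2BC11, whose window overlaps that of its head-to-head partner H2AC11. Capitals mark the box CCAAT of many promoters, the TATA box searched as TATAAA, the octamer ATTTGCAT known from H2B promoters and the H1 box AAACACA, each on either strand.
H1-2 (chr6:26056421-26056720, minus strand): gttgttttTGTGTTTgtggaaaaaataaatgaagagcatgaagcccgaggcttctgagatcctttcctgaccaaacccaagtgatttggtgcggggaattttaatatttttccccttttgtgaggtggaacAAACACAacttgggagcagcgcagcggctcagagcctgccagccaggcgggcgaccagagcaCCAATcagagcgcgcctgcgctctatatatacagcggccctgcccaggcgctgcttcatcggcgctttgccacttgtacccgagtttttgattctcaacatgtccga
H2BC12 (chr6:27146809-27147108, minus strand): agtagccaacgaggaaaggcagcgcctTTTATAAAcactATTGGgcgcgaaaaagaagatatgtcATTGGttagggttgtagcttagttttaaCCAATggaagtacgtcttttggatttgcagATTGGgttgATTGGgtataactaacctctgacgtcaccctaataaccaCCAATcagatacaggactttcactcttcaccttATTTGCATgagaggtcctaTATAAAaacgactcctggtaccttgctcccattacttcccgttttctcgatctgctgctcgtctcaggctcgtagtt
H2BC11 (chr6:27132746-27133045, minus strand): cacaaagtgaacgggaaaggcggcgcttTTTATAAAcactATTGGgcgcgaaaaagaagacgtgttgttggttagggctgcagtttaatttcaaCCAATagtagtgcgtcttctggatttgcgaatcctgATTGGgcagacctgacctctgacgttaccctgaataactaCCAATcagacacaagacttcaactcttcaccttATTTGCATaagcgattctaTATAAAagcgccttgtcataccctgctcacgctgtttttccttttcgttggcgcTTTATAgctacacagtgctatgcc
CCAAT was in 26 of the 31 windows (83.9%) and in 34.6% of all 35116 windows of the same length. The octamer ATTTGCAT was in 12 (38.7%), 7 of them among the 10 windows of H2B genes, and in 1.77% of all windows. These 10 windows belong to 8 genes, and H2BC12 counts more than once among the 7, with windows that nearly coincide. TATAAA was in 22 (71.0%) against 11.5%, and AAACACA in 3 (9.68%) against 5.64%. The letters CAATAAA, a core that CDX factors bind, were in 1 window (3.23%), that of H3C6, against 4.004% of all, and CCGGAA, a core that ETS factors bind, was in 6 (19.4%) against 17.2%. Head-to-head windows overlap, so the same letters count for both partners, and TATAAA in either direction can overlap itself. A match is a description of the letters and not of a bound site.

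In EHF+CDX1 cells 15 of the 29 clustered genes were lower than in CDX1 cells, and the summed level was close to that of EV cells. The same CDX1 libraries served the comparison with EV cells, so these decreases are not separate from the increases found there. Against CDX1 cells, 15 of the 32 genes were called lower and 0 higher (edgeR, 1.5-fold test), where 18.7% of all genes were called lower and 22.3% higher. H4C12 and H2BC17, which passed the filter through CDX1 cells, are among the 15 and lend no support to the count. The other tools run, limma voom and DESeq2, also called 0 higher, and at an unadjusted p of 0.05 the edgeR test also gave 0 increases (24.9% of all genes). The median log2 fold change was -1.26, against 0.04 over all genes. All 6 genes of the polyadenylated list were lower. H2BC5 fell by 2.88 ± 0.33, H1-2 by 2.88 ± 0.32, H2BC21 by 2.76 ± 0.26, H2BC4 by 2.03 ± 0.32, H2BC12 by 1.73 ± 0.20 and H2AC6 by 1.33 ± 0.34 on the log2 scale, with edgeR adjusted p from 8.2e-06 for H2BC21 to 0.024 for H2AC6. The copies H2AC18 and H2AC19 fell by 2.87 ± 0.27 and 2.73 ± 0.35. H3C6 fell by 1.90 ± 0.51 (edgeR adjusted p = 0.019). The calls of H2AC6 and H3C6 were lost when some single libraries were left out. H1-10 had a change of -0.34 ± 0.14 and did not pass.

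By class, 8 of 9 H2B, 3 of 8 H2A, 2 of 4 H3, 1 of 6 H4 and 1 of 2 H1 genes were lower in EHF+CDX1 cells than in CDX1 cells. Over all genes, 18.7% were called lower. The H4 gene, H4C12, and H2BC17 of the H2B genes passed the filter through CDX1 cells and lend no support. The median log2 fold change was -1.83 over the H2B genes and -0.70 over the H4 genes. H1-4, the other clustered H1 gene that passed the filter and named after its values were seen, measured 2.35 ± 0.448 CPM in CDX1 cells and 1.02 ± 0.364 in EHF+CDX1 cells (-1.20 ± 0.42, edgeR adjusted p = 0.080).

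Against EV cells, whose libraries also serve the comparison with CDX1 cells, EHF+CDX1 cells had 1 gene higher, H2BC17, and 1 lower, H3C2, where 7.3% of all genes were higher and 3.13% lower. Both genes were named after their values were seen. H2BC17 had 1, 3 and 4 reads in EV cells and 28, 18 and 5 in EHF+CDX1 cells (2.25 ± 0.48, edgeR adjusted p = 0.016). H3C2 had 11, 14 and 67 reads in EV cells and 7, 16 and 1 in EHF+CDX1 cells (-2.13 ± 0.56, edgeR adjusted p = 0.049), and this call was lost in 9 of the 12 fits that each left out 1 library, EV replicate 3 among them. By total count H3C2 reached 0.5 CPM in 4 libraries, all those of EV cells and CDX1 replicate 1. It thus passed the filter through EV cells, where it was high, and its call lends no support. The median over the 32 genes was 0.31, against -0.03 over all genes. H1-2 measured -0.15 ± 0.31, H2BC12 0.32 ± 0.20 and H2BC5 -0.47 ± 0.32 on the log2 scale, and none of these passed.

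In EHF cells, tested against the same EV libraries, 1 gene was called higher and 0 lower, where 5.68% of all genes were higher and 2.65% lower. At an unadjusted p of 0.05 in the edgeR test against 1.5-fold, 7 of the 32 genes passed in either direction, as did 15.3% of all genes, and limma voom called 1 lower and 0 higher. The 1 edgeR call was again H2BC17, with 7, 15 and 30 reads in EHF cells (2.07 ± 0.48, edgeR adjusted p = 0.035). The median log2 fold change was 0.20, against -0.04 over all genes. H1-2 measured -0.52 ± 0.31 and H2BC5 -0.08 ± 0.32, and H2BC4, at 1.12, 1.28 and 0.850 CPM in EHF cells, lay above each EV library but did not pass (1.21 ± 0.35, edgeR adjusted p = 0.15).

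Between EHF+CDX1 cells and EHF cells, no histone gene was called, where 2.49% of all genes were higher and 0.189% lower. These lines differ by the CDX1 retrovirus and also in how they were sorted and cloned, which cannot be told apart. At an unadjusted p of 0.05, 0 of the 32 passed the edgeR test against 1.5-fold (5.71% of all genes) and 2 passed that against no change (22.5%). limma voom and DESeq2 also called 0. The median log2 fold change was 0.12, against 0.001 over all genes.

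The interaction of the factors was taken as the log2 fold change of EHF+CDX1 cells over CDX1 cells less that of EHF cells over EV cells. These are the same libraries as in the comparisons above, so its calls are not separate from theirs. The interaction was called negative in 16 of the 32 genes and positive in 0 (edgeR, 1.5-fold test), where 18% of all genes were called negative and 20.2% positive. H4C3, H4C11, H4C12 and H2BC17, which passed the filter through CDX1 cells, are among the 16 and lend no support to the count. limma voom and DESeq2 also called 0 positive. The median was -1.46, against 0.05 over all genes. H2AC18 had -3.26 ± 0.40 (edgeR adjusted p = 8.2e-05), H2BC4 -3.24 ± 0.48 and H2BC15 -3.15 ± 0.57. EHF thus went with a lower histone level in cells that carried CDX1 and not in those with the empty vector, as lines and without regard to how each was cloned or sorted. The CDX1 level also differed between the CDX1 lines, and its part cannot be told apart from that of EHF. The EHF transcript also started from unlike levels in the lines without the EHF plasmid, 12.3 CPM in CDX1 cells and 299 CPM in EV cells.

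Genes of S phase moved the other way. Of 52 genes on a list for DNA replication and nucleotide supply, 45 were called lower and 0 higher in CDX1 cells than in EV cells, beside 23.3% and 21.3% of all genes, with a median log2 fold change of -2.14. Their summed level was 6020, 5971 and 2779 CPM in EV cells, 4053, 4240 and 4147 in EHF cells, 1483, 1383 and 1445 in CDX1 cells and 5143, 5090 and 5158 in EHF+CDX1 cells. EV replicate 3 had the lowest sum outside CDX1 cells, and it also had the highest clustered histone sum outside that line. PRIM1, a primase subunit, fell from 33.8 to 1.99 CPM as means, and CDC7, a kinase that fires origins, from 33.3 to 2.37. In EHF+CDX1 cells 47 of the 52 were higher than in CDX1 cells. The histone genes thus were high where the S phase genes were low, in the libraries as groups. No correlation is given, since the libraries fall into separate clusters, and the part of the S phase genes in the histone result was not tested.

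**Figure D5:**
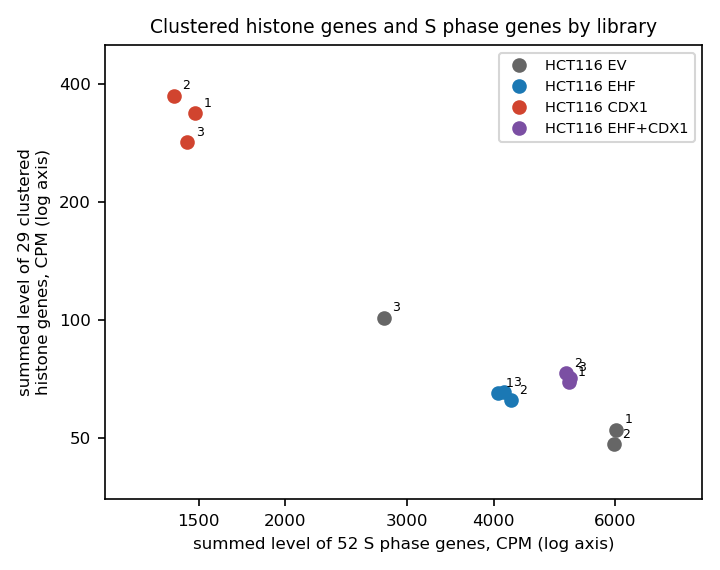
Summed CPM of 29 clustered histone genes against summed CPM of 52 S phase genes (both log axes), 1 point per library, labelled with its replicate number and coloured by line. The CDX1 libraries lie at 284 to 373 CPM of histone and 1383 to 1483 CPM of S phase transcripts, and EV replicate 3 lies apart from the other EV libraries at 101.5 and 2779 CPM.

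Among 24 genes for histone transcription and 3′ processing, 7 were higher and 2 lower in CDX1 cells than in EV cells, beside 21.3% and 23.3% of all genes, so the share higher was near that of all genes. ZNF473, a zinc finger protein of the U7 machinery, measured 22.4 ± 6.6 CPM in EV cells, 111 ± 6.25 in CDX1 cells and 17.4 ± 1.76 in EHF+CDX1 cells (log2 fold change over EV cells 2.30). TUT7, which adds uridines to histone mRNA, measured 38.7 ± 9.92, 158 ± 19.7 and 45.7 ± 1.55 CPM in the same lines. CASP8AP2, a partner of NPAT, fell from 38.3 ± 1.38 to 13.96 ± 1.17 CPM. SLBP measured 109 ± 33.9 CPM in EV cells and 170 ± 10.8 in CDX1 cells (0.64, edgeR adjusted p = 0.30), and NPAT 25.7 ± 3.63 and 17.1 ± 1.26 (-0.58, edgeR adjusted p = 0.41). Neither passed.

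Of 25 histone chaperones, 10 were lower and 2 higher in CDX1 cells, and 11 were higher and 2 lower in EHF+CDX1 cells than in CDX1 cells, beside the 21.3% higher and 23.3% lower and the 22.3% higher and 18.7% lower of all genes. TONSL, CHAF1B and ASF1B, which place new histones behind the fork, had the largest decreases, with log2 fold changes of -2.48, -2.43 and -2.35 over EV cells. The 10 replication-independent variants, whose genes lie outside the clusters and give polyadenylated mRNA, had 0 calls over EV cells with edgeR, and 2 passed at an unadjusted p of 0.05. H3-3B, a gene of the variant H3.3, measured 451 ± 100.1 CPM in EV cells and 782 ± 67.8 in CDX1 cells (0.79, edgeR adjusted p = 0.056), and MACROH2A1 166 ± 37.0 and 95.7 ± 5.94 (-0.79, edgeR adjusted p = 0.054).

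Some RNAs that carry no poly(A) tail were also higher in CDX1 cells. Of 44 such genes, 22 passed the filter, and 9 were higher and 2 lower in CDX1 cells than in EV cells, beside 21.3% and 23.3% of all genes. RN7SK, a nuclear RNA that holds back a transcription elongation factor, measured 3.8 ± 0.655 CPM in EV cells, 11.6 ± 1.03 in EHF cells, 49.4 ± 9.04 in CDX1 cells and 13.2 ± 3.38 in EHF+CDX1 cells as means. Summed over the 44, the level was 60.7, 66.4 and 119 CPM in EV cells, 271, 192 and 204 in CDX1 cells and 72.9, 92.4 and 82.7 in EHF+CDX1 cells. RNU6-1 and RNU6ATAC, spliceosomal RNAs, had log2 fold changes of 2.56 and 3.75 over EV cells. Whether more RNA without a tail entered the CDX1 libraries, and its part in the histone result, was not tested.

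The 42 symbols below the filter were faint in every line, with 40 to 358 reads per library in all. Their sum was 2.28, 1.89 and 2.55 CPM in EV cells and 7.84, 6.29 and 5.48 in CDX1 cells. When each gene with at least 1 count entered the fit, 38 of the 42 had reads, and 8 of these 38 were called higher in CDX1 cells than in EV cells, where 14.4% of all 24839 genes in that fit were. Just inside the filter was H2AC13, with 0.5 CPM in 3 libraries and a highest value of 0.622 CPM by total count. Just outside was H4C9, with 0.5 CPM in 2 libraries and a highest value of 0.893. Against no change in place of 1.5-fold, edgeR called 23 of the 32 genes higher and 1 lower in CDX1 cells than in EV cells, where 33.8% and 35.1% of all genes were called. In EHF cells over EV cells that test gave 4 higher (14.9% of all genes) and 1 lower (15.1%), and in EHF+CDX1 cells over EV cells 5 higher (16.9%) and 1 lower (16.7%). It gave 0 higher (34.9%) and 20 lower (32.3%) in EHF+CDX1 cells over CDX1 cells, and 0 higher (5.65%) and 0 lower (4.13%) over EHF cells. For the interaction it gave 0 positive (30.2%) and 17 negative (28.3%). H4C3, H4C11, H4C12 and H2BC17, which passed the filter through CDX1 cells, are among the 23 and the 17, and all but H4C3 among the 20. The genes lower than in EV cells by that test were H2AC13 and H3C2, which passed the filter mainly through EV cells. Of the 32 genes, 13 reached 0.5 CPM in all 12 libraries.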

How the data were processed

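RNA-seq counts of 12 libraries of 4 HCT116 lines were used. Per the labels and the study's methods, the authors aligned reads with Subread 2.0.0 to GRCh38, kept uniquely mapped reads and counted those over RefSeq exons with featureCounts 2.0.0. The strand setting is not given in the sources used here. The deposited count table was tested as it stands. The deposited log2 RPKM values, which the authors made with limma, served to recover exon lengths. Counts were fitted with edgeR 4.0.16 (R 4.3.3), TMM scaling and all 12 libraries, and tested against a 1.5-fold change over 15853 genes with 0.5 CPM in at least 3 libraries. The filter left out 0.059% of counts, and 550 rows had no symbol. Fold changes and SE come from the same quasi-likelihood fit.

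Members and lists were chosen with earlier results of these data known. Named histone genes are the 10 highest per length, the 5 largest called changes each way and the 3 largest interactions at a mean of at least 1 CPM, the polyadenylated list and the genes outside the clusters; of each other list, the 3 largest changes, with SLBP, NPAT, EHF and CDX1. Other genes named were chosen after their values were seen. Alternatives were limma 3.58.1 voom with quantile normalization, DESeq2 1.42.0, RLE factors, no filter, a test against no change, a replicate block and each library left out, with total-count scaling and the 29 clustered genes alone added later. The script was tested on simulated data with 200 genes changed 4-fold. Replicate numbers did not pair the libraries, with correlations of deviations from -0.065 to 0.080. Depth limits faint genes, as 3 counts are worth 0.040 to 0.222 CPM. Positions come from RefSeq (GRCh38.p14), which matched 32 of 32 genes, and transcript ends from GENCODE release 44. Some single genes are not reported here, though counts and medians include them.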

Additional observations from a re-analysis of the deposited data

Results flagged for a closer look

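The effect of EHF differed between cells with CDX1 and cells with the empty vector in 16 of the 32 histone genes, by the interaction term of the edgeR fit against 1.5-fold with Benjamini-Hochberg adjustment, all of them negative, where 18% of all genes were called negative. The 16 include H4C3, H4C11, H4C12 and H2BC17, which passed the filter through CDX1 cells and lend no support to the count. Of the 16, 9 are genes named by the rule, and their values follow. The interaction, in log2 units, was -3.26 for H2AC18, -3.24 for H2BC4, -3.15 for H2BC15, -2.98 for H2BC11, -2.91 for H2AC19, -2.80 for H2BC5, -2.36 for H1-2, -2.35 for H2BC21 and -1.83 for H2BC12. For H2BC4 the log2 fold change was 1.21 for HCT116 EHF over HCT116 EV and -2.03 for HCT116 EHF+CDX1 over HCT116 CDX1. For H1-2 these were -0.52 and -2.88. The lines compared differ in vector and selection as well, which cannot be told apart from the factors. The interaction rests on the same CDX1 libraries as the other comparisons with CDX1 cells, so its calls are not separate from theirs.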

How the results depend on the processing

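Of 29 calls of single named genes, 27 kept their direction and their side of the threshold under each alternative run, and none reversed. The exceptions were H2AC6 and H3C6 in EHF+CDX1 over CDX1 cells. H2AC6 lost its call with DESeq2 (-1.33, adjusted p = 0.093), with total counts as scaling (-0.97, adjusted p = 0.092) and without CDX1 replicate 3 or EHF+CDX1 replicates 1 or 2, and H3C6 without CDX1 replicate 3 or EHF+CDX1 replicate 1. The cause was not tested. In CDX1 over EV cells, H2AC6 and H3C6 were not called and passed once EV replicate 3 was left out of the edgeR fit (adjusted p = 1.7e-06 and 2.6e-05), and the other alternatives were not tabulated for these genes.

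The counts of 1 or 0 were the least stable. In EHF over EV cells, limma voom gave 0 higher and 1 lower, the test against no change 4 and 1, and DESeq2 and the fit of all genes with at least 1 count 0 higher. The lower count in CDX1 over EV cells was 0 with limma voom, DESeq2 and the fit of all genes. In EHF+CDX1 over EV cells, limma voom gave 0 higher, DESeq2 0 higher and 0 lower, the fit of all genes 0 lower and the test against no change 5 higher. Medians with limma voom were -0.0066 there, -1.75 in EHF+CDX1 over CDX1 cells and -0.17 over EHF cells. Total counts in place of TMM, chosen after the data were seen, moved the median of all genes by -0.34 in CDX1 over EV cells and gave medians of 1.39 there and -0.90 in EHF+CDX1 over CDX1 cells. Without the 3 genes outside the clusters, also chosen after the data were seen, the medians were 2.05 in CDX1 over EV cells and -1.87 for the interaction.

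With each library left out in turn, CDX1 over EV cells had 17 to 21 higher, 0 to 1 lower and a median of 1.59 to 2.06. EHF over EV cells had 0 to 3 higher and 0 to 1 lower, and EHF+CDX1 over EV cells likewise 0 to 3 and 0 to 1. EHF+CDX1 over CDX1 cells had 13 to 16 lower and a median of -1.47 to -1.02, and the interaction a median of -1.81 to -1.26.

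With the replicate number as a block, which the data gave no reason to read as a pairing, EHF over EV cells had 0 higher, CDX1 over EV cells 0 lower and EHF+CDX1 over EV cells 0 lower.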
